A study of Mus musculus with 8 samples.

Results

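Neural crest cells sorted for p75 were compared with tissue labelled OFT in E11.5 mouse embryos, with FAK mutants and controls on both sides. The comparison took 4 of the 8 arrays of the series, chosen by their labels: control and mutant of each origin. The other 4 arrays, from origins labelled LM and UM, entered the filter on dim genes, the genotype term and the estimate of the spread, and are given beside a few results. FAK, focal adhesion kinase, passes on signals from integrins where cells attach to matrix.

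Each p75-sorted array was made from cranial crest cells of 3 pooled embryos, dissected from head and thorax and sorted for p75, the low-affinity neurotrophin receptor encoded by Ngfr. The OFT arrays carry a genotype and the letters OFT, which the labels do not spell out. The number of embryos behind each OFT array, the alleles that make an embryo mutant and any driver of a deletion are not given in the sources used here. The stage of the OFT arrays is that of the series title, and the source of all arrays is labelled head/neck. Only the p75-sorted arrays were sorted, so sorting, batch and origin cannot be told apart. No probe set was named Ptk2, the gene of FAK, in the annotation used here, so the genotype labels were not checked on the arrays.

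Neural crest cells leave the dorsal neural tube and form the neurons and glia of peripheral ganglia, melanocytes, and much of the skeleton and connective tissue of the face. A cardiac population of crest cells enters the outflow tract of the heart, where it meets myocardium, endocardium and smooth muscle. Sox10, Foxd3, Ednrb and Erbb3 are classical genes of migrating crest and of its glial derivatives, while sarcomere genes such as Myl7 and Tnnt2 mark heart muscle.

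The p75-sorted arrays stood apart in part of the array controls. For Gapdh, the 3′ control signal divided by the 5′ one was 2.82 and 4.91 on them and 0.700 to 0.986 on the other 6 arrays, whereas the Actb ratio was 1.57 and 1.65 against 1.42 to 1.94. The 5′ 18S control probe set gave 6083 and 8542 on the p75-sorted arrays, 1228 and 793 on the OFT arrays and 314 to 500 on the rest. Transcripts of the sex chromosomes also differed: Xist, expressed from the inactive X, gave 21.0 in the p75-sorted control, 2247 in its mutant and 4369 and 4368 in OFT, and the Y-linked Eif2s3y had 386, 140, 6.20 and 151 in the same order. The part of these differences in the results was not tested. The log2 values of the p75-sorted arrays correlated at 0.984 over the genes tested, those of the OFT arrays at 0.986, and the 4 pairs between the origins at 0.897 to 0.921, across genes, which are not independent replicates.

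Many genes separated the origins, in both directions. Of 13541 genes tested, 4664 (34.4%) passed an adjusted p of 0.05, of which 2595 (19.2%) were higher in p75-sorted cells and 2069 (15.3%) were higher in OFT. At least 2-fold differences were found for 747 genes (5.52%) on the p75-sorted side and 749 (5.53%) on the OFT side. Counts of called list members below are to be read beside the shares of 19.2% and 15.3% over all genes. The median difference over all genes was 0.07 on the log2(intensity + 32) scale. All differences below are p75-sorted minus OFT on that scale, which understates the change of dim genes, and values after ± are moderated SE with 2 arrays per origin. Because those 2 arrays differ in genotype, the error is the variation of mutant-minus-control differences between origins and not that of replicate samples. Leaving out one array at a time lowered the count of called genes to 1836 without the OFT mutant, 2180 without the p75-sorted mutant and 2992 without the OFT control. A difference of RNA level in bulk samples can come from fewer cells of a type or from less RNA per cell, which cannot be told apart here.

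**Figure D1:**
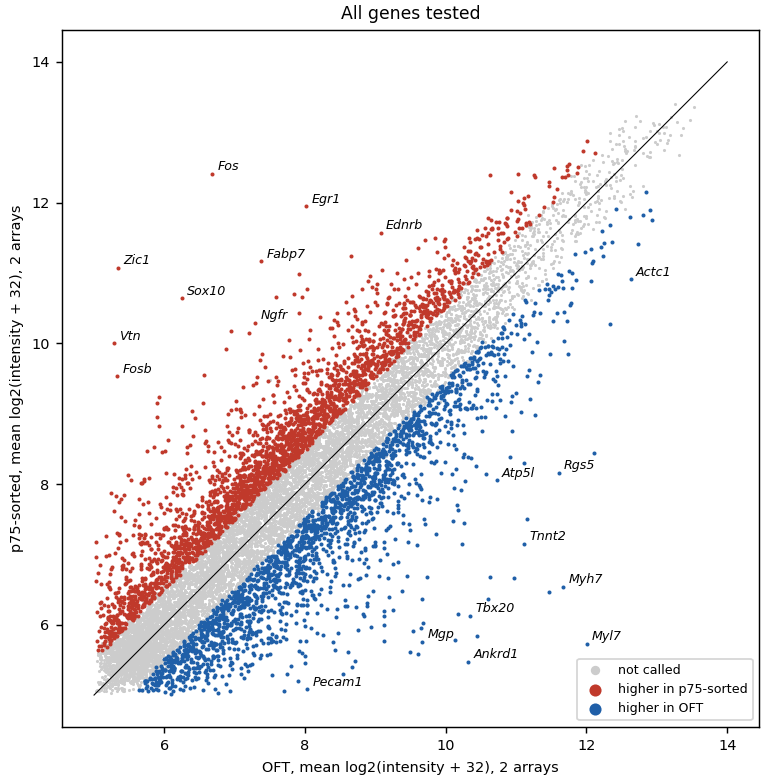
Mean log2(intensity + 32) of the 2 p75-sorted arrays (vertical axis) against that of the 2 OFT arrays (horizontal axis) for the 13541 genes tested; red points are genes called higher in p75-sorted cells, blue points genes called higher in OFT, grey points are not called, and the line marks equal signal. Zic1 and Fos lie farthest above the line, and Myl7 lies farthest below it.

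Different probe sets of a gene did not always run the same way. Among called genes with another tested probe set, 1495 of 2507 (59.6%) had every other probe set on the same side of 0. The share was 263 of 398 (66.1%) for genes at least 2-fold higher in p75-sorted cells and 296 of 422 (70.1%) for genes at least 2-fold higher in OFT. Each gene is represented below by its brightest probe set, and other tested probe sets are given where their sign differs. Averaging all probe sets of a gene, dim ones included, shrank the difference of 50 of the 179 named and called genes by over 1.5 times. For the sort marker Ngfr the averaged difference was 0.87, for Sox10 2.19 and for Tbx20 -2.58, and each kept its call.

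**Figure D2:**
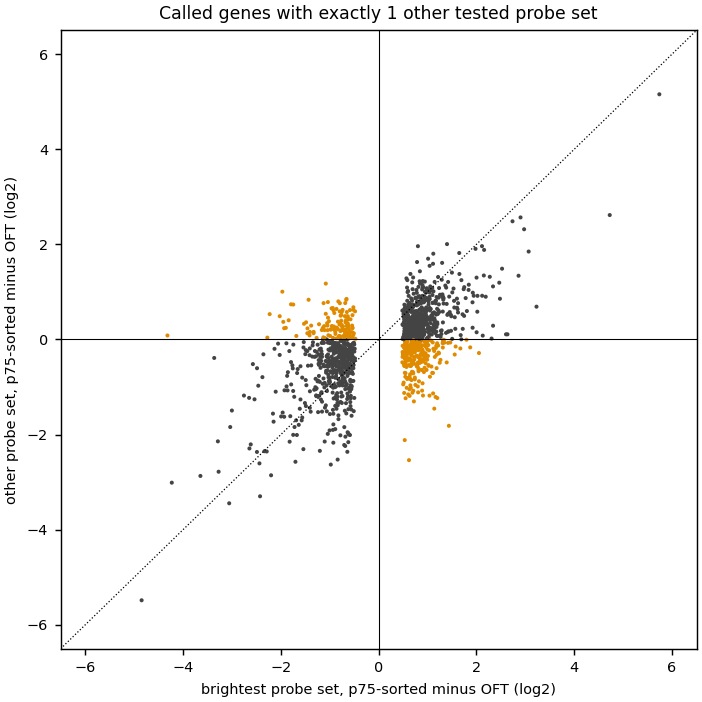
Difference between p75-sorted and OFT arrays (log2) by the brightest probe set (horizontal axis) and by the other tested probe set (vertical axis), for the 1365 called genes with exactly 1 other tested probe set; the dotted line marks equal differences. Orange points, 390 genes, have opposite signs and lie mostly at small differences.

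The crest markers were high on the p75-sorted arrays and the heart muscle markers on the OFT arrays. Sox10, a transcription factor of crest and glia, gave intensities of 1512 (control) and 1620 (mutant) in p75-sorted cells and of 57.5 (control) and 32.2 (mutant) in OFT. The origins did not overlap, and Sox10 differed by 4.40 ± 0.19 (adjusted p = 3.6e-08), with 0.42 to 1.76 at its other probe sets. Ngfr gave 1043 and 1422 in p75-sorted control and mutant against 149 and 104 in OFT control and mutant, a difference of 3.00 ± 0.21 (adjusted p = 1.6e-06), and its protein is what the cells were sorted on. On the LM and UM arrays Sox10 lay between 25.3 and 37.1 and Ngfr between 47.0 and 63.4. Myl7, the atrial myosin light chain, gave 24.8 and 17.6 in p75-sorted cells and 3664 and 4517 in OFT, which was the largest difference of all genes tested, at -6.27 ± 0.18 (adjusted p = 1.6e-09). Cardiac troponin T, Tnnt2, gave 82.9 and 143 against 1998 and 2391, a difference of -3.97 ± 0.19 (adjusted p = 5.8e-08). LM and UM arrays held Myl7 at 0.797 to 2.20 and Tnnt2 at 5.35 to 40.6.

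**Figure D3:**
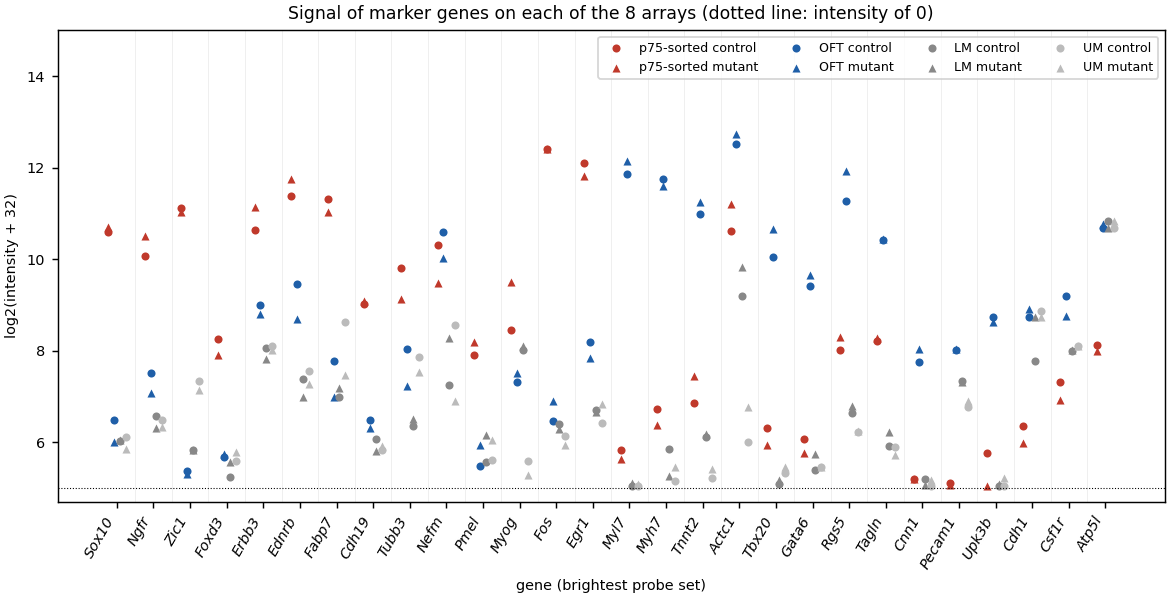
Signal, as log2(intensity + 32), of 28 genes on each of the 8 arrays; circles are controls and triangles mutants, red p75-sorted, blue OFT, dark grey LM and light grey UM, and the dotted line at 5 marks an intensity of 0. Red points lie above blue ones for the crest genes and for Tubb3, Pmel, the skeletal muscle gene Myog, Fos and Egr1. They lie below blue ones for the heart and smooth muscle, endothelial and mesothelial genes, and Nefm overlaps.

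Genes of crest and its glia formed the clearest group on the p75-sorted side. In the list of glial and crest stem cell genes 18 of 22 tested members were higher in p75-sorted cells, 2 were higher in OFT and 2 did not pass, with a median difference of 1.68 against 0.07 over all genes. The gene of the glial fatty acid binding protein, Fabp7, led the list with 2494 and 2056 in p75-sorted control and mutant against 186 and 94.5 in OFT, a difference of 3.79 ± 0.27 (adjusted p = 1.4e-06). Adhesion genes followed: the cadherin genes Cdh6 and Cdh19 differed by 3.07 ± 0.18 and 2.65 ± 0.18. Gfra3, the artemin co-receptor, differed by 2.71 ± 0.27. The endothelin receptor gene Ednrb, needed by crest precursors of enteric neurons and melanocytes, gave 2643 and 3423 against 668 and 383, a difference of 2.50 ± 0.24 with other probe sets between -0.38 and 2.50. Ednrb and Erbb3 were also well above 0 in OFT. Erbb3, the neuregulin receptor of crest and Schwann cell precursors, gave 1565 and 2230 against 480 and 412 (2.0 ± 0.21) and was named after its values were seen. The members higher in OFT were Sostdc1, a secreted antagonist of BMP and WNT ligands, at -2.44 ± 0.20, and Sorl1, a sorting receptor, at -1.04 ± 0.19 with other probe sets at 0.16 and 0.25.

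Transcription factors of the crest were more mixed. Of 25 tested, 12 were higher in p75-sorted cells, 3 were higher in OFT and 10 did not pass, and the median was 0.45. Against the mean of the LM and UM arrays the median of the list was 0.09 in p75-sorted cells and -0.14 in OFT. Zic1, a zinc finger factor of the dorsal neural tube and crest, gave 2175 and 2071 in p75-sorted control and mutant against 9.03 and 7.68 in OFT. Its difference, 5.74 ± 0.17 (adjusted p = 1.6e-09), was the largest of all genes on the p75-sorted side, and its other probe set gave 5.15. Zic1 lay between 24.8 and 130 on LM and UM arrays. Pax3, a paired box factor of the dorsal neural tube and muscle precursors, gave 253 and 149 against 3.65 and 11.9 (2.52 ± 0.24). It lay between 142 and 646 on LM and UM arrays, a range that held both p75-sorted values. Foxd3, a forkhead factor of early crest, gave 272 and 207 against 19.1 and 21.3 (2.37 ± 0.20), and Tfap2a differed by 2.16 ± 0.23 with -0.32 to 1.63 at other probe sets. On LM and UM arrays Foxd3 lay between 5.70 and 23.0. Tfap2a lay between 125 and 422 there, beside 475 and 626 in p75-sorted cells. Sox9, Id1 and Ets1, which are expressed in crest but also in cartilage, valve or endothelial precursors, were the members higher in OFT, at -1.72 ± 0.18, -1.26 ± 0.24 and -0.69 ± 0.18. Other probe sets of Sox9 ran from -1.09 to 0.22 and those of Ets1 from -0.44 to 0.53, and over the mean of probe sets Sox9 differed by -0.86 and Ets1 by -0.17 (adjusted p = 0.48). Ets1 also lost its call when any of the 4 arrays was left out, and Id1 differed by -0.80 without the p75-sorted mutant. Snai2, an inducer of crest emigration, did not pass, with 1821 and 2064 against 1954 and 1582 (0.14 ± 0.22, adjusted p = 0.65), but differed by -0.92 (adjusted p = 0.023) without x and s probe sets, those prone to cross-hybridise.

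Other genes with the largest differences on the p75-sorted side were not members of the crest lists. Vtn encodes vitronectin, a secreted ligand of integrins, and gave 1079 and 915 in p75-sorted control and mutant against 3.86 and 9.98 in OFT, a difference of 4.72 ± 0.20 (adjusted p = 3.4e-08). The orphan receptor gene Gpr17, known from oligodendrocyte precursors, differed by 3.25 ± 0.18. Egfl8, the long noncoding RNA Miat, the glial engulfment receptor Megf10, Tmem132e and Prss12, which encodes the protease neurotrypsin, lay between 3.04 and 3.31. In each of these 7 genes the lower p75-sorted array was above the higher OFT array, as it was for 39.4% of all genes tested, with OFT wholly above for 31.1%.

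Neuronal genes were higher on the p75-sorted arrays for most members, but the neurofilament gene Nefl did not pass. Of 28 neuron genes tested 17 were higher in p75-sorted cells, 3 were higher in OFT and 8 did not pass, with a median of 0.95; 10 were higher without the OFT mutant array, and 10 with a pseudocount of 1. The 3 higher in OFT became 1 without the OFT mutant or either p75-sorted array. Crmp1, a mediator of semaphorin signals, differed by 2.70 ± 0.24, the microtubule regulator Stmn3 by 2.27 ± 0.27 and Nsg2 by 1.93 ± 0.19. Neuronal beta tubulin, Tubb3, gave 860 and 527 against 228 and 117 (1.84 ± 0.23), and the RNA-binding protein gene Elavl3 differed by 1.83 ± 0.23. The neuronal intermediate filament gene Ina gave 625 and 404 against 315 and 109 (1.27 ± 0.27, adjusted p = 0.0035), and lost its call without the OFT mutant (0.75) and at a pseudocount of 1. The signal of Nefl was 1608 and 712 in p75-sorted cells against 1184 and 680 in OFT (0.25 ± 0.43, adjusted p = 0.68). The 4 values of Nefl overlapped between origins, as did those of Snap25, at 158 and 55.9 against 118 and 74.4 (0.03 ± 0.29). Sncg, at 0.63 ± 0.31 (adjusted p = 0.14), did not pass either. Neuronal transcripts were thus well above an intensity of 0 on the OFT arrays too.

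Factors of peripheral neurogenesis showed no common direction. Of 22 tested 6 were higher in p75-sorted cells and 3 in OFT, with a median of 0.07 equal to that of all genes. Without the OFT mutant or without the p75-sorted mutant 3 were higher in p75-sorted cells, and the median ranged from -0.07 to 0.32 with one array left out. Pou4f1 (2.02 ± 0.28), Hmx1 (1.78 ± 0.23) and Insm1 (1.33 ± 0.21) lay on the p75-sorted side, though Hmx1 had an adjusted p of 0.055 at a pseudocount of 1. Insm1 gave 150 and 117 in p75-sorted cells, 153 and 99.3 on the UM arrays and 8.61 and 17.0 on the LM arrays. Isl1, a factor of sensory neurons and of second heart field progenitors, gave 493 and 369 against 1201 and 1029 (-1.32 ± 0.23). Ret, the receptor of GDNF in autonomic and enteric precursors, gave 80.4 and 37.0 against 227 and 93.3 (-1.03 ± 0.28), and its call was lost without the OFT control (-0.61) and without the p75-sorted mutant (-0.84).

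Small lists of other ectodermal and crest derivatives followed. Of 6 melanocyte genes tested 3 were higher in p75-sorted cells: Pmel, a melanosome matrix protein, gave 208 and 260 against 12.4 and 29.5 (2.34 ± 0.17), the pigment enzyme Dct differed by 1.77 ± 0.20, and Slc45a2 by 0.61 ± 0.22, whose call was lost when any of the 4 arrays was left out. Mitf, the master factor of melanocytes, differed by -0.55 ± 0.20, and its call was lost in the same way. Neural tube progenitor genes were higher in p75-sorted cells for 6 of 15 and higher in OFT for 0 of 15 by the limma test at the adjusted threshold, with a median of 0.43. This count was 3 without the OFT control, the OFT mutant or the p75-sorted mutant. The forebrain factors Lhx2 (1.32 ± 0.22) and Otx2 (1.23 ± 0.19) were dim, Otx2 at 66.2 and 32.2 against 3.49 and 0.207. Both were brighter on the UM arrays, Lhx2 at 189 and 221 and Otx2 at 194 and 181. Against the mean of the LM and UM arrays the median of the neural tube list was -0.09 in p75-sorted cells and -0.35 in OFT. Oc90, an otoconial protein gene of the inner ear, gave 106 and 65.2 against 0.840 and 2.75 (1.78 ± 0.19) and was the 1 of 8 otic and placode genes higher in p75-sorted cells.

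Skeletal muscle genes were also higher on the p75-sorted arrays. Of 15 tested 12 were higher in p75-sorted cells, 2 were higher in OFT and 1 did not pass, with a median of 0.92. Against the mean of the LM and UM arrays their median was 0.91 in p75-sorted cells and 0.11 in OFT. The factor that commits cells to muscle, Myod1, gave 162 and 287 in p75-sorted control and mutant against 29.6 and 60.5 in OFT (1.72 ± 0.18, adjusted p = 2.8e-05), with 0.22 at its other probe set. Myog, which drives fusion and differentiation, gave 316 and 693 against 127 and 151 (1.56 ± 0.26). The LM arrays held Myog at 225 and 241, above OFT, and the UM arrays at 16.4 and 6.92. Myod1 lay between 11.7 and 87.3 on LM and UM arrays. The mutant was the higher p75-sorted array in both genes. Without the p75-sorted mutant Myog differed by 1.02, the median of the list was 0.58, and the number of called members was 5; it was 6 without the OFT mutant and 5 at a pseudocount of 1. Acta1, the skeletal alpha actin that the embryonic heart also expresses, was higher in OFT, at 60.7 and 82.5 against 411 and 598 (-2.36 ± 0.17).

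Cardiac muscle genes were the group that set OFT apart. Of 28 tested 24 were higher in OFT, 1 was higher in p75-sorted cells and 3 did not pass, and the median difference was -3.23. The count of 24 was the same without each of the 4 arrays. Myh7, the slow beta myosin heavy chain, gave 73.3 and 50.3 in p75-sorted control and mutant against 3424 and 3051 in OFT (-5.13 ± 0.22, adjusted p = 2.7e-08). Ventricular and atrial light chain genes Myl2, Myl4 and Myl3 differed by -5.0 ± 0.23, -4.32 ± 0.18 and -4.25 ± 0.18, with 0.08 at the other probe set of Myl4. The stretch-responsive genes Ankrd1 and Csrp3 differed by -4.84 ± 0.19 and -4.34 ± 0.20, the alpha myosin heavy chain Myh6 by -4.02 ± 0.20, the troponin gene Tnni1 by -3.95 ± 0.19 and phospholamban, Pln, by -3.88 ± 0.23. Pdlim3, a Z-disc protein gene outside the lists, differed by -4.60 ± 0.24. Cardiac alpha actin, Actc1, was bright on all 4 arrays, at 1541 and 2325 against 5858 and 6756, and differed less, by -1.72. The member higher in p75-sorted cells was Atp2a2, the calcium pump of the sarcoplasmic reticulum, at 0.60 ± 0.20 with other probe sets from -1.37 to 0.94. Its call was lost at pseudocounts of 1 and 16, with the mean of probe sets (-0.32) and without the OFT mutant, the p75-sorted control or the p75-sorted mutant.

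Heart transcription factors went with the sarcomere genes for the most part. Of 25 tested 18 were higher in OFT and 4 in p75-sorted cells, with a median of -0.86; without the p75-sorted mutant 11 were higher in OFT, and at a pseudocount of 1 there were 7. Tbx20, a T-box factor of myocardium and endocardial cushions, gave 47.8 and 28.9 against 1023 and 1586 (-4.23 ± 0.22). Gata6 (-3.62 ± 0.20), Foxf1 of splanchnic mesoderm (-3.29 ± 0.19) and Hand2 (-2.45 ± 0.22) followed. The basic helix-loop-helix factor Hand2 was at 156 and 201 on the p75-sorted arrays and at 1195 and 1030 in OFT. On the p75-sorted side stood the Iroquois factor Irx5, at 481 and 435 against 70.8 and 41.5 (2.49 ± 0.19). Irx3, at 1.54 ± 0.19, and Mef2c, at 1.06 ± 0.19 with its other probe sets from -0.64 to -0.01 and -0.053 over the mean of its probe sets, were named after their values were seen. Tcf24, a factor outside the lists, differed by -4.01 ± 0.23.

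Smooth muscle and mural cell genes were higher in OFT for 12 of 21 tested, higher in p75-sorted cells for 2, and had a median of -0.73. Rgs5, a pericyte regulator of G protein signals, gave 227 and 284 against 2454 and 3873 (-3.44 ± 0.19). Calponin, Cnn1, was near 0 on the p75-sorted arrays, at 4.58 and 4.76, and reached 184 and 232 in OFT (-2.70 ± 0.18). Csrp1 (-3.05 ± 0.19), enteric actin Actg2 (-2.25 ± 0.22) and transgelin, Tagln (-2.18 ± 0.18), ran the same way. Tagln was not absent from the sorted cells, with 266 and 279 there against 1332 and 1355 in OFT. Mgp, the matrix Gla protein of vessel walls and cushions, was among the largest differences on the OFT side, at 17.5 and 27 against 784 and 773 (-3.91 ± 0.21).

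Serum response factor, SRF, is known to bind the CArG box in promoters of sarcomere, smooth muscle and immediate early genes. The windows below are shown because these genes stood on opposite sides of the comparison while sharing that element, which is printed in capitals. They are upstream of a start in the RefSeq table of build GRCm38.p6, on the coding strand.

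Myl7, chr11:5898804-5898873, minus strand: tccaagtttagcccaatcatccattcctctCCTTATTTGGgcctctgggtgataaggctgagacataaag
Myl3, chr9:110763563-110763632, plus strand: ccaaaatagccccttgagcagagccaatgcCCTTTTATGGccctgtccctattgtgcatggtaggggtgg
Actc1, chr2:114052883-114052952, minus strand: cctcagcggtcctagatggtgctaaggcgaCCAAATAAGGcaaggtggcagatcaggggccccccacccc
Myl9, chr2:156775273-156775342, plus strand: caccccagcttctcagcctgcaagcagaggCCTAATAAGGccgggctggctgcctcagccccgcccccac
Egr2, chr10:67537464-67537533, plus strand: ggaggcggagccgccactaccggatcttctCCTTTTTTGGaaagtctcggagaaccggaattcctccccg
Srf, chr17:46556185-46556274, minus strand: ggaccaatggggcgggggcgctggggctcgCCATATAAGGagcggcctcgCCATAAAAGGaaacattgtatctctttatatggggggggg

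Myl7, Myl3, Actc1 and the smooth muscle light chain gene Myl9 (-1.61) were higher in OFT, whereas Egr2 (1.98) and Srf itself (0.52) were higher in p75-sorted cells, though the call of Srf was lost when any of the 4 arrays was left out. The CArG box, whose pattern reads the same on both strands, begins 61 bases before the start of Myl7, 85 before that of Myl3 and 47 before that of Actc1. In the 250 bases before a start it was found for 29 of 569 matched genes (5.1%) at least 2-fold higher in OFT and for 9 of 587 (1.53%) at least 2-fold higher in p75-sorted cells. The share was 157 of 10881 (1.44%) for all genes tested that matched and 439 of 27025 (1.62%) for all genes of the table, a gene counting when any of its starts had a match. Among matched list members it was 5 of 26 for cardiac muscle, 2 of 16 for smooth muscle and 2 of 21 for immediate early and heat shock genes, beside 2 of 11 for imprinted growth genes and 2 of 12 for neural tube progenitors. The motif ACAAAG, the core bound by SOX factors, searched on both strands, was found for 17.8% and 17.2% of the same 2-fold groups and 14.8% of genes tested. A match is a description of the letters and not a bound site.

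Genes of cells lining vessels, organs and surfaces were mostly higher in OFT than in p75-sorted cells. Endothelial genes were higher in OFT for 20 of 25 tested, higher in p75-sorted cells for 1, and had a median of -1.22. Their median difference from the mean of the LM and UM arrays was 0.73 in OFT and -0.73 in p75-sorted cells. Pecam1, the endothelial adhesion molecule CD31, was near 0 in the sorted cells, at 2.24 and 1.46, against 227 and 229 in OFT (-2.94 ± 0.17). Emcn (-2.64 ± 0.21), the phosphatase Ptprb (-2.33 ± 0.19), the angiopoietin receptor Tek (-2.30 ± 0.18) and VE-cadherin, Cdh5 (-1.87 ± 0.21), ran the same way. Emcn was about as high on the LM and UM arrays (271 to 345) as in OFT (290 and 322), whereas Pecam1, Ptprb, Tek and Cdh5 were lower there than in OFT. The natriuretic peptide receptor gene Npr3 was the member higher in p75-sorted cells (0.90 ± 0.18; other probe sets -0.01 to 0.30) and lost its call without the OFT mutant (0.80). Mesothelial and epicardial genes were higher in OFT for 10 of 12, with a median of -1.41. Against the mean of the LM and UM arrays their median was 1.17 in OFT and -0.28 in p75-sorted cells. Tcf21, an epicardial and branchiomeric muscle factor, gave 27.2 and 18 against 499 and 556 (-3.36 ± 0.18), with -0.39 at its other probe set. The mesothelial uroplakin Upk3b gave 22.0 and 1.14 against 393 and 361 (-3.27 ± 0.22).

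Surface epithelium genes were higher in OFT for 12 of 18 and had a median of -1.13, or -0.73 without the p75-sorted mutant. Against the mean of the LM and UM arrays their median was -0.19 in OFT and -1.11 in p75-sorted cells, so OFT lay closer to LM and UM. Desmoplakin, Dsp, which joins desmosomes to keratin in epithelium and to desmin in heart muscle, gave 105 and 115 against 982 and 1401 (-3.09 ± 0.27). E-cadherin, Cdh1, gave 49.3 and 30.8 against 391 and 450 (-2.66 ± 0.26), and Perp differed by -1.62 ± 0.18. Tfap2c was the 1 member higher in p75-sorted cells, at 1.47 ± 0.29, but differed by -0.26 once x and s probe sets were left out. Macrophage genes were higher in OFT for 9 of 15, with a median of -0.70, led by Csf1r, the receptor of macrophage colony-stimulating factor, at 126 and 89.7 against 552 and 398 (-1.85 ± 0.19). Their count was 5 without the p75-sorted mutant, 3 without the OFT control and 2 under a stricter filter on dim genes. Erythroid genes were bright in both origins: the embryonic globin Hbb-y gave 6878 and 9519 against 7505 and 9304 (-0.05 ± 0.22, adjusted p = 0.89). Of 11 erythroid genes 2 were higher in OFT and 0 higher in p75-sorted cells by limma, and 1 was higher in p75-sorted cells at a pseudocount of 1. Hba-x, an embryonic alpha-like globin, gave 2697 and 2688 against 6223 and 7326 (-1.32 ± 0.27).

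Extracellular matrix genes divided between the origins, with 13 of 43 higher in p75-sorted cells, 12 higher in OFT and a median of -0.09, which ranged from -0.24 to 0.16 with one array left out. The members with the largest differences were higher in OFT: the hyaluronan link protein Hapln1 gave 40.4 and 78.3 against 577 and 696 (-2.90 ± 0.25), thrombospondin Thbs1 differed by -2.61 ± 0.20, Ltbp1 by -2.46 ± 0.18, Fbln5 by -2.18 ± 0.18 and Col12a1 by -2.16 ± 0.23. Col1a1, the main fibrillar collagen, gave 224 and 174 against 1109 and 489 (-1.75 ± 0.25), but its other probe set gave 0.73 and the mean of its probe sets did not pass (-0.51, adjusted p = 0.052). The members with the largest differences on the p75-sorted side, named after their values were seen, were the type VI collagen genes Col6a1 (2.13 ± 0.22) and Col6a2 (2.11 ± 0.17), the proteoglycan gene Lum (2.03 ± 0.22) and Col14a1 (1.84 ± 0.19). Lum, a collagen-binding proteoglycan of loose connective tissue, gave 2565 and 1484 against 510 and 403.

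Genes of the adhesion sites at which FAK acts were called about as often as all genes tested. Over all genes 34.4% passed, 19.2% higher in p75-sorted cells and 15.3% higher in OFT. Of 37 tested 9 were higher in p75-sorted cells, 4 were higher in OFT and 24 did not pass, with a median of 0.24 (0.14 without the OFT mutant and 0.15 without the p75-sorted mutant), and 5 were higher in p75-sorted cells without the OFT mutant and also at a pseudocount of 1. Paxillin, Pxn, a scaffold that binds FAK, gave 1336 and 1608 against 500 and 472 (1.53 ± 0.18), with other probe sets from -0.68 to 1.76. The integrin subunits ran in different directions: Itgb5 differed by 1.47 ± 0.22, and Itgb1, shared by most matrix receptors, by -1.64 ± 0.18 at 414 and 621 against 1532 and 1780. Git1, an adaptor of adhesion turnover, differed by 1.29 ± 0.23 and caveolin, Cav1, by -1.51 ± 0.23. Itgb3 gave 23.7 and 85.5 against 48.2 and 52.4 (-0.02 ± 0.26), with the OFT arrays between the p75-sorted ones.

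Hox genes, which mark position along the body axis, gave 8 of 18 higher in p75-sorted cells and 4 higher in OFT, with a median of 0.46. Among genes that passed the filter on dim genes, direction went mostly with the paralog group, a split made after the values were seen and therefore not tested. Of 9 genes of groups 1 to 4, 1 was higher in p75-sorted cells and 4 were higher in OFT, with a median of -0.64. Hoxb2, a gene of the second pharyngeal arch and the hindbrain behind it, gave 82.4 and 66.2 against 264 and 311 (-1.59 ± 0.22), and Hoxa3, a gene of the third arch, gave 91.8 and 64.1 against 319 and 193 (-1.36 ± 0.23), or -0.54 over the mean of its probe sets. Of 9 genes of groups 5 to 9 that passed the filter, 7 were higher in p75-sorted cells and 0 in OFT by limma. All 9 differences were above 0, at 0.44 to 2.34 with a median of 1.08. Hoxa9 and Hoxc8 passed the filter only through the p75-sorted arrays. Hoxa7, Hoxb7, Hoxb9 and Hoxc9 were too dim to be tested. Among them Hoxb9 gave 2.13 and 5.17 against 7.38 and 6.79, and Hoxc9 5.48 and 17.7 against 6.34 and 4.68. The median of all Hox genes was 0.14 without the filter and 0.19 under a stricter one. Hoxa9 gave 131 and 207 against 5.56 and 8.31 (2.34 ± 0.21), but had 0.29 at its other probe set and an adjusted p of 0.18 at a pseudocount of 1. Hoxc5 gave 250 and 204 against 56.6 and 41.9 (1.67 ± 0.18), and Hoxb6 gave 180 and 98.5 against 32.2 and 31.8 (1.38 ± 0.22). On LM and UM arrays Hoxb5 lay between 0.513 and 3.64 and Hoxc5 between 1.77 and 18.2. At a pseudocount of 1 there were 3 Hox genes higher in p75-sorted cells and 2 higher in OFT, and 2 were higher in OFT without the OFT control.

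**Figure D4:**
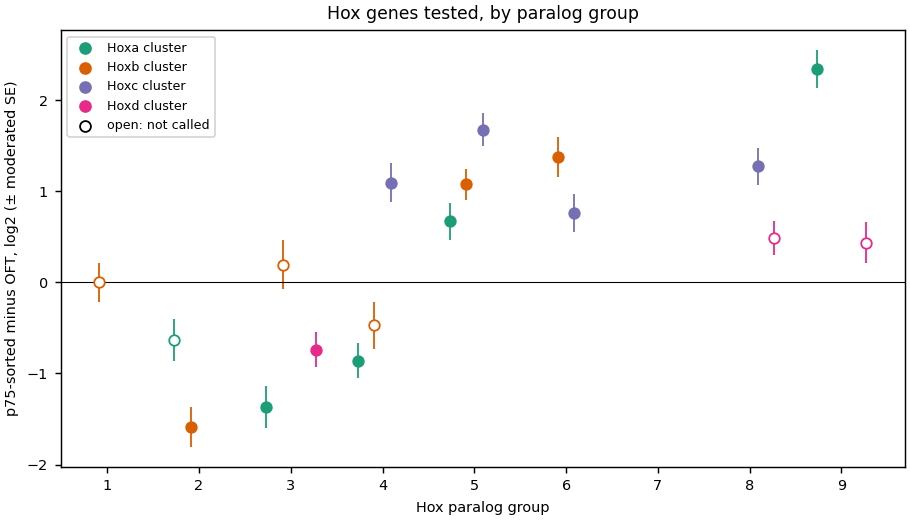
Difference between p75-sorted and OFT arrays (log2, bars are moderated SE) of the 18 Hox genes tested, by paralog group, with points spread sideways within a group; filled points are called and open points are not, and colours mark the 4 clusters. Groups 1 to 4 range from -1.59 to 1.09 and groups 5 to 9 from 0.44 to 2.34.

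Retinoic acid sets Hox domains, and 6 of 14 genes of its pathway were higher in p75-sorted cells and 3 higher in OFT, with a median of 0.36, or 0.16 without the OFT mutant. The synthesising enzyme Aldh1a2, also an epicardial gene, gave 1372 and 1434 against 422 and 348 (1.79 ± 0.19). Its counterpart Aldh1a1 was higher in OFT (-1.01 ± 0.19). Cyp26a1, which degrades retinoic acid, gave 187 and 102 against 27.2 and 6.09 (1.85 ± 0.26), and the binding protein Crabp2 gave 2234 and 3020 against 902 and 620 (1.75 ± 0.23). Facial mesenchyme genes had a median of 0.32. Against the mean of the LM and UM arrays their median was -0.71 in p75-sorted cells and -0.85 in OFT. On LM and UM arrays Pou3f3 lay between 310 and 662, beside 628 and 455 in p75-sorted cells, and Dlx1 between 145 and 680. Facial genes were higher in p75-sorted cells for 10 of 27 and higher in OFT for 2, beside 19.2% and 15.3% of all genes tested. Pou3f3 (2.60 ± 0.20) led them with 0.11 at its other probe set, followed by Dlx1 of the branchial arches at 543 and 470 against 136 and 76.0 (2.0 ± 0.27). This count was 6 without the p75-sorted control and 5 without the OFT mutant.

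Several signalling pathways had genes called in both directions. Over all genes tested 19.2% were called higher in p75-sorted cells and 15.3% higher in OFT, so calls both ways are not particular to these pathways. In the endothelin pathway the ligand gene Edn1 gave 13.8 and 7.59 in p75-sorted cells against 87.9 and 141 in OFT (-1.76 ± 0.21), while Ednrb, given above, was higher in p75-sorted cells. Among 19 Notch pathway genes, of which 8 were higher in p75-sorted cells and 4 in OFT, the ligand Jag1 gave 400 and 397 against 1515 and 1359 (-1.77 ± 0.21). Its fellow ligands Dll3 (1.94 ± 0.22) and Dll1 (1.24 ± 0.19) and the effector Heyl (1.38 ± 0.18) were on the p75-sorted side. The receptor Notch1 differed by 1.44 ± 0.27, with adjusted p = 0.054 without the p75-sorted mutant and 0.051 without the OFT mutant. Without these arrays 4 and 3 Notch genes were higher in p75-sorted cells. BMP and TGF-beta genes were higher in OFT for 9 of 29 and in p75-sorted cells for 7, the latter 3 without the OFT mutant. The ligands Bmp2, at 45.5 and 46.3 against 248 and 287 (-1.94 ± 0.20), and Inhba (-1.60 ± 0.18) and the inhibitor Smad6 (-1.65 ± 0.20) were on the OFT side. The co-receptor Tgfbr3 was on the other (1.56 ± 0.19), with -0.32 at its other probe set.

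The counts of WNT, FGF and axon guidance genes stand beside 15.3% of all genes called higher in OFT and 19.2% higher in p75-sorted cells. WNT pathway genes were higher in OFT for 9 of 31 and in p75-sorted cells for 4. The secreted antagonists Frzb (-1.82 ± 0.18) and Sfrp2 (-1.46 ± 0.22) and the agonist Rspo2 (-1.28 ± 0.17) were on the OFT side. Axin2, a target that also limits the pathway, gave 362 and 350 against 128 and 59.7 (1.68 ± 0.24), with 0.09 at its other probe set, and the antagonist Dkk2 differed by 1.36 ± 0.21. Without the p75-sorted mutant or the OFT mutant 2 were higher in p75-sorted cells, and with the mean of probe sets 14 were higher in OFT and 8 in p75-sorted cells. FGF genes were called 3 each way of 22, and the 3 higher in OFT became 0 without the OFT control and 1 without either p75-sorted array. In this list the feedback inhibitor Spry1 (1.57 ± 0.19) and the receptor Fgfr4 (1.40 ± 0.24) were higher in p75-sorted cells. Fgfr4 had adjusted p = 0.15 at a pseudocount of 1. Axon guidance genes were higher in p75-sorted cells for 10 of 42 and in OFT for 11. Sema3c, a guidance cue of cardiac crest, gave 266 and 332 against 1070 and 1529 (-1.99 ± 0.18), and the ephrin Efna1 differed by -1.72 ± 0.18. The receptor Dcc differed by 1.80 ± 0.20, with other probe sets at -0.0030 and 1.76. Robo3, at 239 and 171 against 1.76 and 10.4 (2.63 ± 0.20), had adjusted p = 0.55 at a pseudocount of 1, and Sema3f, at 480 and 1258 against 136 and 146 (2.23 ± 0.26), had 0.19 (adjusted p = 0.48) without x and s probe sets. Without the p75-sorted mutant 5 guidance genes were higher in p75-sorted cells and 7 in OFT, and without the OFT mutant 5 were higher in p75-sorted cells.

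Immediate early genes, which cells switch on within minutes of a stimulus, were far higher on the p75-sorted arrays. Of the 26 members tested, heat shock genes included, 19 were higher in p75-sorted cells, 3 were higher in OFT and 4 did not pass, with a median of 1.33; 14 to 19 were higher with one array left out. Fos gave 5426 and 5398 in p75-sorted control and mutant against 55.9 and 88.0 in OFT (5.73 ± 0.20, adjusted p = 5.3e-09). Its relative Fosb gave 705 and 712 against 5.50 and 11.2 (4.20 ± 0.19). Egr1, a zinc finger factor of the same response, gave 4323 and 3545 against 261 and 198 (3.93 ± 0.21), and Klf4 differed by 2.86 ± 0.23. LM and UM arrays held Fos at 29.5 to 51.8, Fosb at 5.14 to 16.2 and Egr1 at 52.9 to 82.2, close to or below OFT. The p75-sorted arrays are the only ones described as sorted and the ones with the high Gapdh and 18S control values, and the part of sorting in these genes was not tested. The heat-inducible chaperone gene Hspa1b gave 635 and 227 against 93.3 and 173 (1.38 ± 0.38) and lost its call without the p75-sorted control (0.68) or the OFT control (0.69). Hspb1, a small heat shock protein that is also abundant in heart muscle, was higher in OFT, at 150 and 141 against 1023 and 1124 (-2.64 ± 0.21).

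Genes of energy metabolism were more often called higher in OFT than higher in p75-sorted cells. Of 75 respiratory chain genes 25 were higher in OFT, 5 were higher in p75-sorted cells and 45 did not pass, with a median of -0.15; 16 were higher in OFT without the OFT mutant and 15 at a pseudocount of 1. The 5 higher in p75-sorted cells became 0 without the OFT mutant or the p75-sorted mutant, 1 without the p75-sorted control and 2 without the OFT control. Cox6a2, the cytochrome oxidase subunit of heart and skeletal muscle, gave 13.9 and 19.9 against 303 and 424 (-3.00 ± 0.20). Subunits that are not confined to muscle differed too: Uqcr10 by -2.82 ± 0.21, Atp5l by -2.67 ± 0.18, Cox8a by -2.42 ± 0.26 and Ndufs5 by -2.09 ± 0.19. Atp5l gave 247 and 221 in p75-sorted cells, 1606 and 1707 in OFT and 1615 to 1792 on LM and UM arrays. Uqcr10 gave 145 and 139, 1243 and 1149, and 1008 to 1415 in the same order. Cox8a gave 367 and 169, 1423 and 1557, and 1276 to 1513. Ndufs5 gave 226 and 156, 990 and 829, and 863 to 1065. For these genes the p75-sorted arrays stood apart from all others. For Cox6a2 the OFT arrays did. Against the mean of the LM and UM arrays the median of the list was -0.13 in p75-sorted cells and -0.03 in OFT. Glycolysis and hypoxia genes were higher in OFT for 6 of 20, led by the glucose transporter Slc2a1 at 567 and 521 against 1757 and 2067 (-1.75 ± 0.18) and Pfkp (-1.62 ± 0.20; other probe sets -1.55 and 0.19), whereas Pfkl differed by 1.46 ± 0.19. Ribosomal protein genes were mostly not called, with 6 of 47 higher in OFT and 3 higher in p75-sorted cells. The OFT count was 10 without the LM control or without the LM mutant and 11 with only the 4 arrays.

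Proliferation genes gave no common direction: of 30 cell cycle genes 3 were higher in p75-sorted cells, 5 were higher in OFT and 22 did not pass. The S phase cyclin Ccne1 (1.43 ± 0.21; 0.54 without x and s probe sets) and the spindle checkpoint gene Bub1b (1.39 ± 0.21; other probe sets -0.12 and 0.59) were on the p75-sorted side. Kif11, a spindle motor, was on the OFT side (-0.83 ± 0.18) and lost its call without the OFT control, and the 5 became 2, 1, 3 and 2 without the OFT control, the OFT mutant, the p75-sorted control and the p75-sorted mutant. Of 14 p53 target genes 4 were higher in p75-sorted cells, none of them in the fits without the OFT mutant or without the p75-sorted mutant, and 1 was higher in OFT. Imprinted growth genes were called 2 each way of 14. Igf2r, which clears the growth factor IGF2, gave 491 and 459 against 2351 and 2534 (-2.29 ± 0.18), and Ndn, the gene of necdin, differed by 1.09 ± 0.20.

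**Figure D5:**
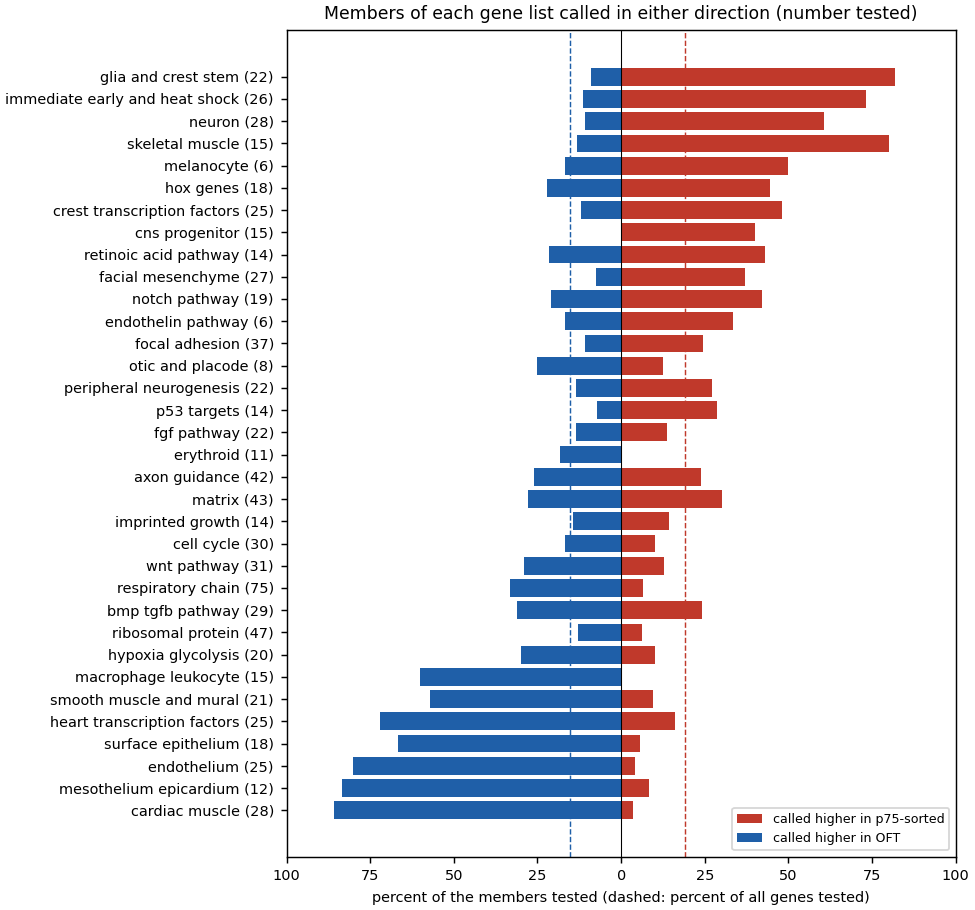
Percent of the tested members of each gene list called higher in p75-sorted cells (red, to the right) and higher in OFT (blue, to the left), with the number tested in brackets; dashed lines mark the percent over all 13541 genes, 19.2% and 15.3%. Lists are ordered by median difference, from glia and crest stem cells at 1.68 to cardiac muscle at -3.23.

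Sums of marker intensities set the origins side by side. A sum is led by its brightest probe sets and does not measure the share of a cell type. The 5 crest and glia markers summed to an intensity of 6886 and 7535 in p75-sorted control and mutant and to 892 and 663 in OFT. The 5 cardiac muscle markers summed to 1789 and 2607 against 16694 and 18959, and Actc1 alone gave 1541 and 2325 of the p75-sorted sums. Neuron markers, 5 of them, were closer, at 4964 and 2762 against 3714 and 2230. Endothelial markers summed to 203 and 206 against 1439 and 1264, mesothelial markers to 70.5 and 36.1 against 980 and 1006, and 2 neural tube markers to 98.5 and 70.6 against 5.60 and 9.54. Skeletal muscle markers, 3 of them, summed to 518 and 1041 against 195 and 296. Erythroid markers summed to 8009 and 8305 against 11502 and 13667, so globin transcripts were present in both origins.

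The mutant-minus-control differences within the origins rest on 1 array each and carry no test. Over all genes their median was -0.02 in p75-sorted cells and -0.05 in OFT, and 53 genes (0.391%) in p75-sorted cells and 25 (0.185%) in OFT were at least 2-fold apart. The mutant was the higher array for 6461 of the 13541 genes in p75-sorted cells and for 5799 in OFT. Members of a list were read from the same arrays and are not replicates of a genotype. Skeletal muscle genes were higher in the mutant for 15 of 15 in p75-sorted cells (median 0.68) and for 10 of 15 in OFT (median 0.18). Myh3, the embryonic myosin heavy chain, gave 142 (control) and 391 (mutant) in p75-sorted cells, and 72.3 and 67.4 in OFT. Neuron genes were higher in the mutant for 2 of 28 in p75-sorted cells (median -0.50) and for 4 of 28 in OFT (median -0.51). Cardiac muscle genes were higher in the mutant for 24 of 28 in OFT (median 0.25) and for 12 of 28 in p75-sorted cells (median -0.07). Nes, an intermediate filament gene of neural and muscle precursors, gave 286 (control) and 830 (mutant) in p75-sorted cells against 193 and 168 in OFT, and did not pass between origins (1.30 ± 0.49, adjusted p = 0.057). Cdkn1a, the p53-induced cell cycle inhibitor, gave 112 and 301 against 88.3 and 89.8, and its difference between origins, 0.86 ± 0.29, lost its call without the p75-sorted mutant (0.19), the OFT control (0.98) or the OFT mutant (0.73), and its other probe set gave -0.04. Levels between genes were not compared, since intensities of different probe sets are not on one scale.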

How the data were processed

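RNA of 8 samples was measured on Affymetrix arrays, 1 per origin and genotype. As deposited, each of 45101 probe sets has 1 linear intensity per array; the sources used here do not name the program behind these intensities. The trimmed mean (2nd to 98th percentile) was 150 on every array, so no further scaling was applied. Precision is limited by the number of arrays. Gene names came from the platform annotation: 34945 probe sets had exactly 1 gene, 932 several (left out) and 9160 were unlisted; 64 were controls. A gene was its brightest probe set, and 13541 genes with at least 2 of 8 arrays above the 40th percentile (intensity 19.4) were tested on log2(intensity + 32).

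limma 3.58.1 in R 4.3.3 (lmFit, eBayes) was fitted on all 8 arrays with terms for origin and genotype (3 residual degrees of freedom, prior 9.18), contrast p75-sorted minus OFT, Benjamini-Hochberg adjustment over all genes, threshold 0.05. The fit was tested on simulated data. Whether control and mutant arrays share animals is not stated; p-values measure only the spread between these arrays.

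The origins compared and 35 gene lists were chosen with earlier results of these data known, so lists are described by counts and medians without set tests. Named genes are the 4 markers, the 15 largest called differences each way, up to 5 called members per list with the largest difference (the 2 largest if fewer passed), and list genes whose genotypes differed by over 1 within an origin; others were named after their values were seen (Actc1, Atp2a2, Col14a1, Col6a1, Col6a2, Egr2, Erbb3, Ets1, Hbb-y, Hoxb5, Id1, Irx3, Lum, Mef2c, Myl9, Npr3, Snai2, Sorl1, Sostdc1, Sox9, Srf, Xist and Eif2s3y). Of the sequences, RefSeq promoters matched 10881 of the 13541 genes by symbol. Alternatives were pseudocounts 1, 16 and 64, quantile normalization, other filters, other probe set rules, an intensity trend, fits without the genotype term or the LM and UM arrays, and leaving out each array. The fit on only genes whose probe sets run one way and the one on arrays centred on their median were added after seeing the data.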

Additional observations from a re-analysis of the deposited data

Results flagged for a closer look

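The items here had mutant-minus-control differences of opposite sign in p75-sorted cells and in OFT. Each rests on 1 array per genotype and origin, and the difference between the origins was not tested. The median of the 26 immediate early and heat shock genes was -0.19 in p75-sorted cells and 0.14 in OFT. That of the 20 hypoxia and glycolysis genes was -0.12 and 0.12. The chaperone gene Hspa1b differed by -1.36 in p75-sorted cells and by 0.71 in OFT, and the slow skeletal troponin gene Tnnt1 by 1.14 and -0.52. The ribosomal protein gene Rpl37 differed by -0.50 and 0.65.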

How the results depend on the processing

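Of the 179 named and called genes 137 kept direction and call in those of the 21 alternatives that tested them. The other 42 lost the call or changed direction in at least 1. A gene that an alternative did not test was counted as kept there. The stricter filter on dim genes and the fit on genes whose probe sets run one way left out some named genes, such as Myl4 in the latter. A pseudocount of 1 gave 2791 called genes, 1481 higher in p75-sorted cells and 1310 higher in OFT. A pseudocount of 64 gave 499 genes at least 2-fold higher in OFT, and the mean of probe sets gave 425 at least 2-fold higher in p75-sorted cells and 539 in OFT; arrays centred on tested genes gave 652 and 838. The causes were not tested beyond what these settings change. With one array left out, called genes ranged from 1836 to 5008, those higher in p75-sorted cells from 895 to 2779, those higher in OFT from 941 to 2229, and those at least 2-fold higher from 607 to 1056 and from 690 to 905. The lowest count of called genes came without the OFT mutant, where 1819 of the 4664 original calls were kept. Without the genotype term, which acts as a replicate block by tying arrays of 1 genotype across origins, 4913 genes were called (2742 and 2171). Of 68 list counts 35 moved by over 1.5 times when 1 of the 4 arrays compared was left out, 22 of the 39 counts of at most 5 members and 13 of the 29 larger ones.

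Some differences turned sign, among them those of the called genes Tfap2c, Mef2c, Atp2a2 and Spred1. Itgb3 turned to 0.0029 at a pseudocount of 64, 0.034 with quantile normalization and 0.0024 with the mean of probe sets, and ranged from -0.54 (without the p75-sorted mutant) to 0.49 (without the p75-sorted control) with one array left out. Snap25 turned to -0.010 with the mean of probe sets and -0.016 with arrays centred on tested genes, and ranged from -0.44 to 0.51 with one array left out. Nefl ranged from -0.064 to 0.56 in the same way. Spred1 turned to -0.16 with the mean of probe sets, Tfap2c to -0.26 without x and s probe sets, and Atp2a2 to -0.32 and Mef2c to -0.053 with the mean of probe sets. Snai2 turned to -0.39 with the mean of probe sets and -0.92 without x and s probe sets, and ranged from -0.037 to 0.31 with one array left out, Hbb-y from -0.26 to 0.17. With 2 arrays per origin, small differences and dim genes are the least certain.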
